A study of Mus musculus with 8 samples.

Results

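The genes of stathmin and of the tubulins it binds were followed in squamous carcinoma cells given 1 of 2 microRNAs. The 10 genes described here were Stmn1, the α-tubulin genes Tuba1a, Tuba1b, Tuba1c and Tuba4a, and the β-tubulin genes Tubb2a, Tubb2b, Tubb3, Tubb5 and Tubb6. They were chosen by gene name on the array, out of 30139 named genes or unnamed transcripts. Stathmin, the product of Stmn1, binds the αβ-tubulin dimers from which microtubules grow, and it promotes the shrinkage of microtubule ends. Its binding is switched off by phosphorylation, for example by the mitotic kinase Cdk1, and stathmin is known for its high level in dividing and carcinoma cells. The dimer joins 1 α-tubulin and 1 β-tubulin chain, each drawn from several near-identical genes, and cells are known to destabilise tubulin messages when free dimer accumulates.

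The cells were mSCC-20, a cutaneous squamous cell carcinoma line from the FVB/N mouse strain, so every value comes from 1 line. The tested transfections were miR-193b-3p (2 arrays, amount label 0.2 µg) and miR-365a-3p (2 arrays, amount label 0.6 µg). Each was set against arrays of the control microRNA, miR-NC, that carry the same amount label (2 arrays at 0.2 µg and 2 at 0.6 µg). The labels do not say of what the amount is, nor whether the arrays of a group came from separate cultures, so a p-value here covers the spread from array to array and nothing more. Total RNA, with an RNA integrity number of 10 in every sample, was labelled with Cy3 and hybridised to Agilent mouse arrays, 1 sample an array.

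A microRNA guides silencing of messages mainly through its seed, bases 2 to 8, which pairs with complementary bases in the message. The mature sequences from RefSeq (GRCm38.p6) are shown because the search for seed matches rests on them, written 5′ to 3′ with the seed in capitals. The miR-365-3p sequence is encoded identically at chr11:79726467-79726488 and chr16:13453895-13453916, and miR-193b-3p lies at chr16:13449570-13449591, all on the plus strand. RefSeq gives the name miR-365-3p without the letter a of the labels.
miR-193b-3p: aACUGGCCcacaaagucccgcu
miR-365-3p: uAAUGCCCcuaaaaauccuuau
The 10 genes had 15 probes of 60 bases, and 1 of them, the brighter Stmn1 probe, held the DNA match to the miR-193b-3p seed, GGCCAGT. The stretch around it is shown with the match in capitals, at mm9 chr4:134029366-134029395 on the plus strand as the files give it.
Stmn1 probe window: aagactgtactGGCCAGTgtcctttacttt
The whole probe lies at chr4:134029355-134029414 and the match at chr4:134029377-134029383. Whether that position is coding or untranslated was not annotated in the sources used here. Of all 39429 gene probes, 116 (0.294%) held GGCCAGT. None of the 15 probes held GGGCATT, the match to the miR-365-3p seed, which was present in 123 probes (0.312%). The opposite strand of the match, ACTGGCC, was in 98 probes (0.249%), and in the Stmn1 probe it overlaps GGCCAGT in the window above. AATGCCC, the opposite strand of GGGCATT, was in 122 probes (0.309%) and in none of the 15. Bases outside the probes were not searched.

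All 10 genes passed the filter on dim signals, and all 15 probes were well above background on all 8 arrays with no saturated spot. Levels are given as log2 of the processed signal minus the 75th percentile of that array, so a level of 0 equals that percentile. A level belongs to its own probe and is compared only between arrays. With 2 arrays against 2, an exact rank test cannot give a p below 0.333, so a lack of overlap is a description only. The share of all genes without overlap is not given here. A gene was called changed where its adjusted p in limma (Benjamini-Hochberg over 17856 genes) was below 0.05. After miR-193b, 1 of the 10 genes was called lower and 0 higher, where 1.17% of all genes tested were called lower and 1.75% higher. After miR-365a, 1 of the 10 was called lower and 0 higher, where 8.04% of all genes were called lower and 7.81% higher. The gene called was Stmn1 after miR-193b and Tubb6 after miR-365a.

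Stmn1 fell strongly after miR-193b. Its brighter probe read 3.19 and 3.10 on the miR-193b arrays, against 4.63 and 4.68 on the miR-NC arrays of the 0.2 µg set. Both miR-193b arrays lay below every other array, and the groups did not overlap. The log2 difference was -1.51 (SE 0.11, 95% interval -1.77 to -1.24, n = 2 each), or 2.84-fold lower, with an adjusted p of 0.0108 in limma. In bulk RNA, less message per cell and fewer cells that carry it cannot be told apart. By unadjusted p Stmn1 was the 9th of 17856 genes, and by the size of its fall the 21st of the 14614 genes above background on every array. Within slide 1, which held 1 array of each group, the difference was -1.44, and between the miR-193b array on slide 3 and the miR-NC array on slide 2 it was -1.58. With the 0.2 µg arrays fitted alone the value was the same and the call was lost (adjusted p = 0.132 in limma). The adjusted p ranged from 0.00199 to 0.132 over 19 alternatives. With slide as a block the call was also lost, but slides 2 and 3 held 1 array each. That fit therefore rests on the 1 array pair of slide 1 and repeats its value of -1.44.

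The second Stmn1 probe, at mm9 chr4:134029695-134029754, shares no run longer than 8 bases with the first and has no seed match. It read 2.61 and 2.52 on the miR-193b arrays, against 3.90 and 4.20 on the miR-NC arrays. The fall was of similar size to that on the first probe (log2 difference -1.48, SE 0.14), with an adjusted p of 0.0184 in a limma fit of all 23282 probes tested. Both Stmn1 probes were called, where 1.05% of all probes were called lower after miR-193b.

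Gm11223, listed by RefSeq as a pseudogene, has a probe that shares a run of 53 bases with this second Stmn1 probe. That probe read 2.44 and 2.31 after miR-193b, against 3.62 and 3.92 on miR-NC arrays, a log2 difference of -1.39 (SE 0.14). Signals of Stmn1 and Gm11223 cannot be told apart by these probes. The brighter Stmn1 probe shares no run of 18 or more bases with the probe of any other gene on the array. Only probes were compared, so whether the Gm11223 transcript holds the bases of the brighter probe is not known here.

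Stmn1 was not called after miR-365a. Its brighter probe read 4.35 and 4.45 on the miR-365a arrays, against 4.50 and 4.42 on the miR-NC arrays of the 0.6 µg set. The groups overlapped, and the log2 difference was -0.06 (SE 0.11, 95% interval -0.33 to 0.20), with an adjusted p of 0.776 in limma. The second probe gave -0.07 (SE 0.14). The miR-193b effect minus the miR-365a effect was -1.45 (SE 0.15), with an adjusted p of 0.0145 in limma. Of the 10 genes, only Stmn1 had a called difference between the effects, where 3.56% of all genes had one. That call was lost in 7 of 18 alternatives, with values between -1.57 and -1.38 and adjusted p of 0.0021 to 0.0692. The alternatives that lost it include leaving out miR-193b replicate 1, miR-365a replicate 1 or 2, or miR-NC replicate 3 or 4. The effects come from sets that differ in amount label and slide, which cannot be told apart from the microRNA in this difference.

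**Figure D1:**
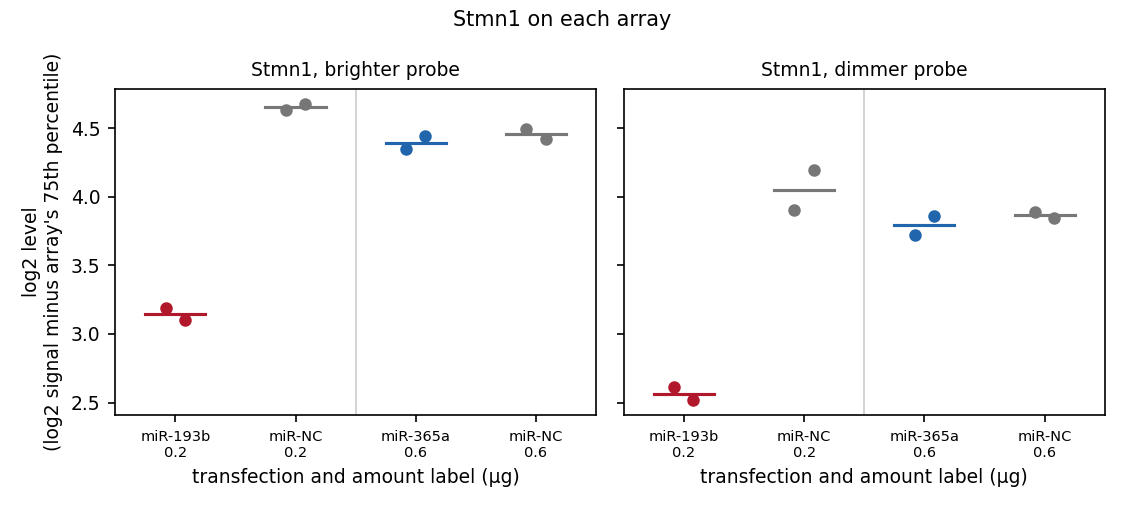
The vertical axis gives the log2 level of the brighter (left) and dimmer (right) Stmn1 probe, as log2 signal minus the 75th percentile of the array. Each point is 1 array and each bar a mean of 2 arrays. Both miR-193b points lie below the other 6 points in each panel, while the miR-365a points lie close to their miR-NC points.

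The seed match in the Stmn1 probe was set beside all probes that hold it. Of the 116 probes with GGCCAGT, 76 were tested, and 4 were called lower and 0 higher after miR-193b, where 1.05% of all probes were called lower. After miR-365a, 5 of the same 76 were called lower and 8 higher, where 8.04% of all probes were called lower. The share called higher is known over genes only, 7.81% after miR-365a and 1.75% after miR-193b. The median log2 difference of the 76 after miR-193b was -0.03, against 0.03 over all 23282 probes. The 4 probes, named after their values were seen, belong to Stmn1, Zfp365 (-1.22), Vwa5b2 (-1.13) and Slc44a2 (-0.87). After miR-365a, 28 of the 67 tested probes with GGGCATT were called lower and 1 higher, with a median of -0.63 against 0.03 over all probes, where 8.04% of all probes were called lower. After miR-193b, 0 of those 67 were called lower and 3 higher. A match in a probe window is a description and says nothing of sites elsewhere in a message.

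Genes whose pattern over the 8 arrays was most like that of Stmn1 were found by Pearson correlation of the log2 level minus the miR-NC mean of the same amount. The comparison covered 14568 genes above background on all arrays, and the arrays share slides and sets. Among the closest were an unnamed transcript known by its probe, A_55_P2187034 (r = 0.998), the mitochondrial import gene Timm8b (r = 0.997), Gm11223 (r = 0.994) and an unnamed Ensembl transcript (r = 0.991). The likeness rule fixes the direction of these genes, so their values are a description. The Gm11223 probe shares a run of 53 bases with the second Stmn1 probe, so its likeness may not be that of a separate gene. Timm8b had a log2 difference of -0.94 after miR-193b and -0.0045 after miR-365a. The 9 tubulin genes had r between -0.61 for Tuba1c and 0.25 for Tubb5, so none was among those closest to Stmn1.

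No α-tubulin gene was called after either microRNA. Tuba1b and Tuba1c encode α-tubulins made in most cells. The Tuba1b main probe, at mm9 chr15:98761923-98761982 on the minus strand, read 7.86 and 7.87 after miR-193b, against 7.88 and 8.10 on miR-NC arrays. It read 7.52 and 7.68 after miR-365a, against 7.97 and 7.83 on miR-NC arrays. Both miR-365a values lay below the matched control values, but the log2 difference of -0.30 (SE 0.13, 95% interval -0.62 to 0.02) had an adjusted p of 0.181 in limma. After miR-193b the difference was -0.12 (SE 0.13, adjusted p = 0.615). The second Tuba1b probe, which shares no run longer than 6 bases with the first, gave -0.22 after miR-193b and -0.18 after miR-365a (SE 0.14 each).

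Tuba1c, at chr15:98868477-98868536, read 7.27 and 7.09 after miR-193b, against 7.06 and 6.93 on miR-NC arrays. After miR-365a it read 7.01 and 7.26, against 7.17 and 7.43 on miR-NC arrays. The values were close in both sets, with log2 differences of 0.18 (SE 0.15, adjusted p = 0.512) and -0.17 (SE 0.15, adjusted p = 0.54). The second Tuba1c probe shares 42 of its bases with the first as 1 run, so the pair is not an independent check, and it gave 0.12 and -0.16.

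Tuba1a encodes an α-tubulin best known from developing neurons. It read 4.83 and 4.43 after miR-193b, against 4.33 and 4.16 on miR-NC arrays, and 4.46 and 4.62 after miR-365a, against 3.58 and 4.31 on miR-NC arrays. The treated values lay above their controls in both sets, while the 2 miR-NC arrays of the 0.6 µg set were far apart (SD 0.52). The log2 differences were 0.39 (SE 0.26, adjusted p = 0.429) after miR-193b and 0.60 (SE 0.26, 95% interval -0.04 to 1.24, adjusted p = 0.181) after miR-365a. The miR-365a value was 0.24 without miR-NC replicate 3 and 0.97 without replicate 4 (adjusted p = 0.616 and 0.0618). The second Tuba1a probe gave 0.42 and 0.51 (SE 0.27 each). That probe shares a run of 39 bases with a probe of an unnamed transcript, so its signal is less certainly that of Tuba1a alone.

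Tuba4a encodes the α-tubulin known to be made without the terminal tyrosine. Its probe, at mm9 chr1:75212307-75212366 on the minus strand, read 5.04 and 4.86 after miR-193b, against 4.85 and 4.92 on miR-NC arrays, and 5.19 and 5.48 after miR-365a, against 5.33 and 5.48 on miR-NC arrays. The groups overlapped in both sets, with log2 differences of 0.07 and -0.07 (SE 0.14 each), and the 95% intervals of -0.28 to 0.42 and -0.42 to 0.28 bound the change these arrays could show. The files place the second probes of Tuba1a and Tuba1c on chromosome 12 in the annotation of the 0.2 µg arrays and on chromosome 15 in that of the 0.6 µg arrays. Near-identical tubulin copies can share hybridisation, so each tubulin value belongs to its probe first. No 2 probes of different genes among the 10 shared a run longer than 10 bases.

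Among the β-tubulins, Tubb6 was called lower after miR-365a. Tubb6 encodes a β-tubulin made in many tissues. Its 1 probe, at mm9 chr18:67562310-67562369, read 5.31 and 5.59 on the miR-365a arrays, against 6.09 and 6.31 on the miR-NC arrays. The groups did not overlap. Tubb6 fell by 0.75 on the log2 scale (SE 0.19, 95% interval -1.20 to -0.30), or 1.68-fold, with an adjusted p of 0.0441 in limma. The call lay close to the threshold, and 9 of 19 alternatives lost it, with values between -0.89 and -0.61 and adjusted p of 0.0172 to 0.199. Leaving out either miR-365a array, or either miR-NC array of the 0.6 µg set, was enough to lose it. It was also lost without either miR-NC array of the 0.2 µg set, which left the value at -0.75. Those arrays enter only through the spread, which is estimated over both sets.

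After miR-193b Tubb6 read 5.83 and 5.43, against 5.70 and 5.84 on miR-NC arrays. The groups overlapped, the log2 difference was -0.14 (SE 0.19, adjusted p = 0.684), and it was 0.13 within slide 1 and -0.42 between slides 3 and 2. The difference between the 2 microRNA effects on Tubb6 was 0.61 (SE 0.26, 95% interval -0.03 to 1.24), with an adjusted p of 0.269 in limma. The fall after miR-365a was therefore not shown to differ from the effect of miR-193b.

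Tubb5 encodes the β-tubulin made in most dividing cells. Its probe, at mm9 chr17:35971872-35971931 on the minus strand, read 6.29 and 6.27 after miR-193b, against 6.25 and 6.36 on miR-NC arrays, and 6.75 and 6.96 after miR-365a, against 6.82 and 6.82 on miR-NC arrays. It had the smallest log2 differences of the 10 genes, -0.02 after miR-193b (95% interval -0.31 to 0.27) and 0.03 after miR-365a (95% interval -0.25 to 0.32).

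Tubb2a and Tubb2b encode closely related β-tubulins best known from brain, and neither was called. The main Tubb2b probe, at mm9 chr13:34219092-34219151 on the minus strand, read 2.32 and 1.83 after miR-193b, against 1.26 and 1.14 on miR-NC arrays. It read 3.44 and 3.83 after miR-365a, against 2.27 and 3.25 on miR-NC arrays. The treated arrays lay above their controls in both sets, with a log2 difference of 0.88 (SE 0.34, 95% interval 0.04 to 1.71) in each. The unadjusted p was 0.0419 in both, and the adjusted p was 0.212 after miR-193b and 0.142 after miR-365a in limma. Within slide 1 the miR-193b difference was 1.06, and between slides 3 and 2 it was 0.69. Without miR-NC replicate 4 the miR-365a difference was 1.37 and passed the threshold (adjusted p = 0.0482), and without miR-NC replicate 3 it was 0.39 (adjusted p = 0.489). The second Tubb2b probe, which overlaps the first by a shared run of 29 bases, gave 1.01 after miR-193b and 0.88 after miR-365a (SE 0.37 each).

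Tubb2a read 3.34 and 2.91 after miR-193b, against 2.73 and 2.26 on miR-NC arrays, with a log2 difference of 0.63 (SE 0.33, adjusted p = 0.319). After miR-365a it read 3.45 and 3.94, against 2.94 and 3.71 on miR-NC arrays, with a log2 difference of 0.37 (SE 0.33, adjusted p = 0.522), which was -0.015 without miR-NC replicate 3. The 2 miR-NC arrays of the 0.6 µg set differed more for Tubb2a (SD 0.54) and Tubb2b (SD 0.69) than for Tubb5 (SD 0.003), and replicate 3 was the lower array for Tuba1a, Tubb2a and Tubb2b.

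Tubb3 encodes the β-tubulin used as a neuronal marker and also known from carcinomas. Its probe, at mm9 chr8:125945850-125945909, read 0.44 and -0.25 after miR-193b, against -0.04 and -0.28 on miR-NC arrays, with a log2 difference of 0.26 (SE 0.28, adjusted p = 0.615). After miR-365a it read 0.10 and 0.49, against 0.75 and 1.14 on miR-NC arrays. The miR-365a values lay below their controls without overlap, but the log2 difference of -0.65 (SE 0.28, 95% interval -1.32 to 0.02) had an adjusted p of 0.173. The difference between the effects was 0.91 (SE 0.39, adjusted p = 0.267). Over the 9 tubulin genes the median log2 difference was 0.18 after miR-193b and -0.07 after miR-365a, against 0.05 and 0.02 over all genes tested.

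**Figure D2:**
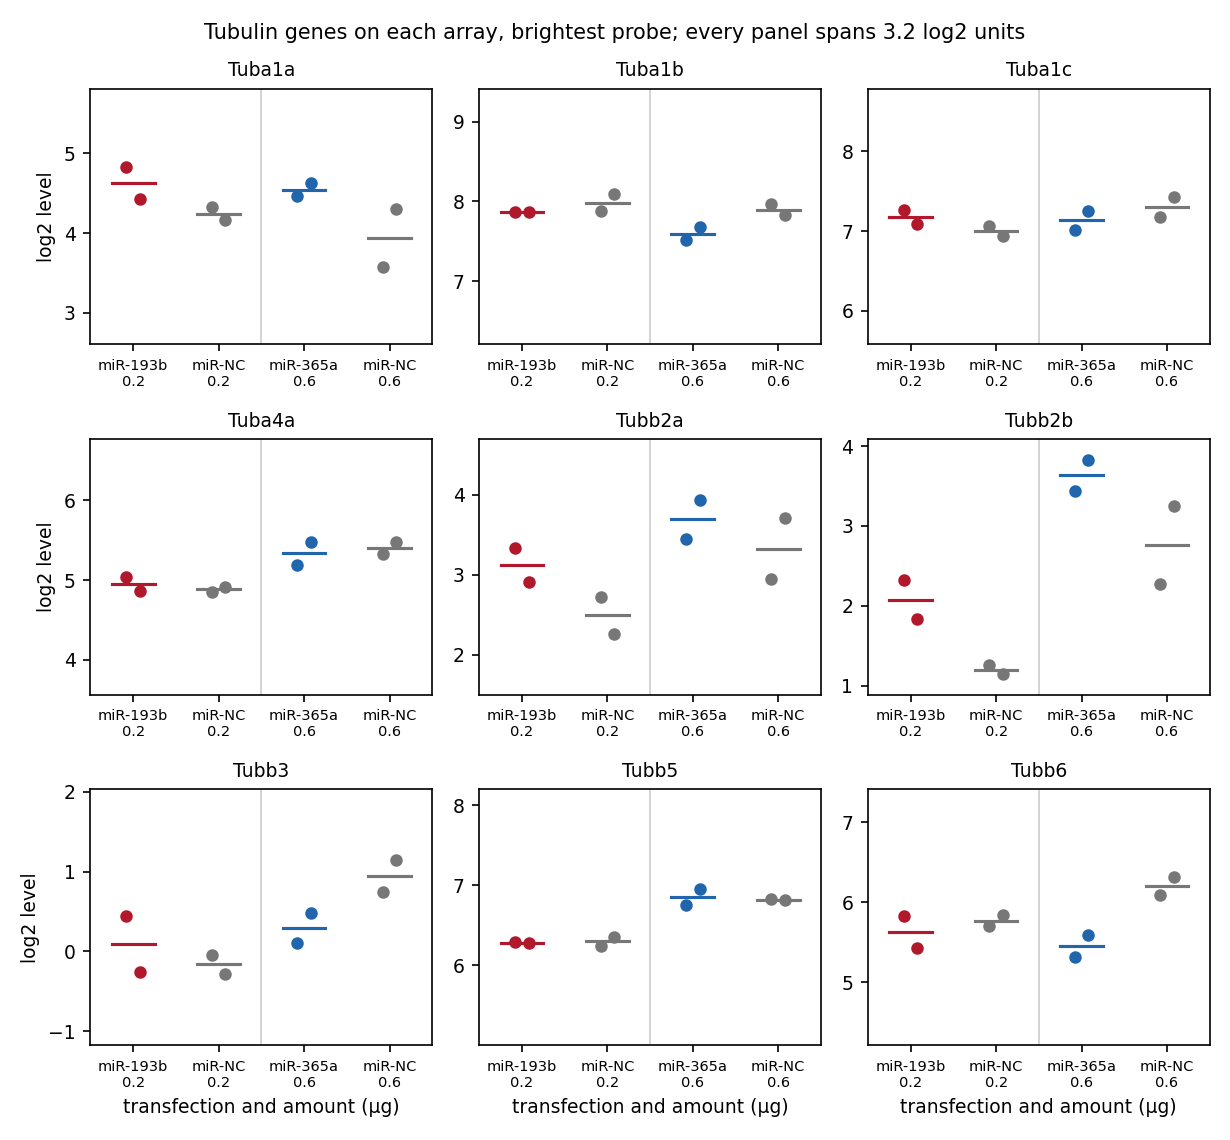
Each panel gives the log2 level of 1 tubulin gene (brightest probe, log2 signal minus the 75th percentile of the array) on every array, with a bar at the mean of 2 arrays. The Tubb6 points after miR-365a (5.31 and 5.59) lie below their miR-NC points, and the Tubb2b points lie above theirs in both sets with wide spread.

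**Figure D3:**
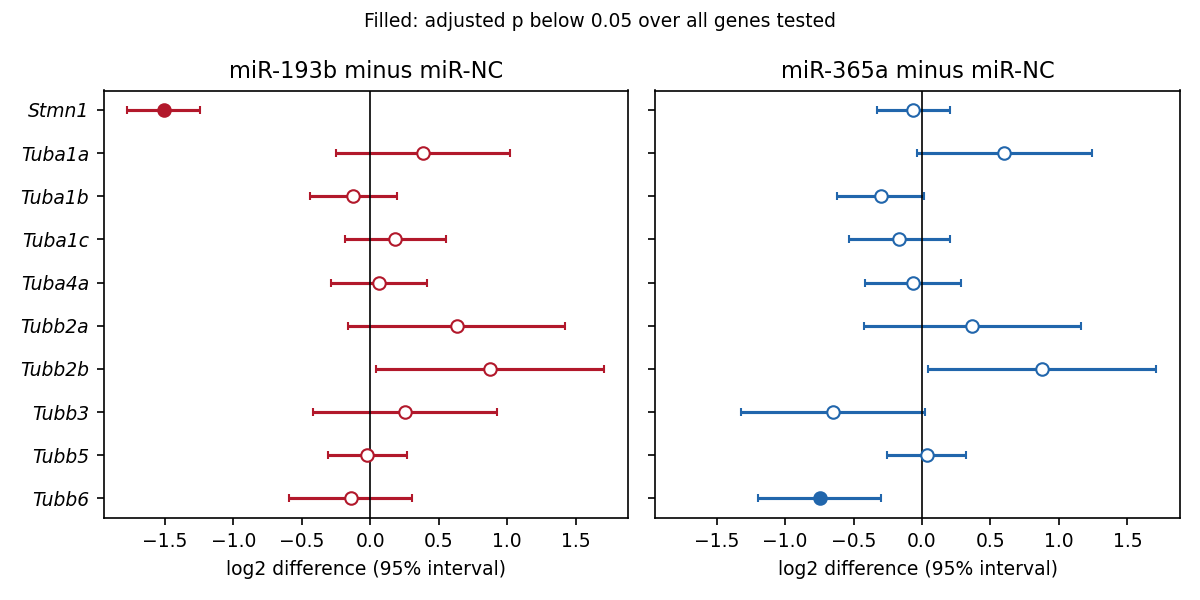
Points give the log2 difference from the miR-NC arrays of the same amount label, and lines the 95% interval of the limma fit. Filled points, Stmn1 after miR-193b (-1.51) and Tubb6 after miR-365a (-0.75), had an adjusted p below 0.05 over all genes tested.

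The control arrays of the 2 sets differed for several of these genes, as a description without a test. On miR-NC arrays Tubb2b averaged 2.76 ± 0.69 at 0.6 µg and 1.20 ± 0.09 at 0.2 µg (SD, n = 2 each), a difference of 1.56. Tubb3 differed by 1.11, Tubb2a by 0.83, and Tuba4a and Tubb5 by 0.52 each, all higher at 0.6 µg. Stmn1 was 0.20 lower at 0.6 µg. The 0.6 µg arrays all lay on slide 4, had a median local background of 26 to 30 against 55 to 60.5, and had 58.9% to 62.1% of spots well above background against 51.4% to 54.6%. Amount, slide and background cannot be told apart here. Each microRNA difference was taken within its own set. The SE and p of each test rest on a spread estimated over both sets.

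A list of 103 other microtubule genes set the 10 in context. Of its 97 tested genes, 0 were called higher and 1 lower after miR-193b, and 4 higher and 9 lower after miR-365a. The median log2 difference of the list was -0.05 after miR-193b and 0.11 after miR-365a. These shares lie near those of all genes given above, so nothing is read from them about the list.

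The gene called lower after miR-193b was Prc1, which cross-links the microtubules of the spindle midzone. Prc1 read 2.51 and 2.45 after miR-193b, against 3.22 and 3.27 on miR-NC arrays, and 2.32 and 2.06 after miR-365a, against 2.94 and 2.96 on miR-NC arrays. It fell by 0.76 after either microRNA (SE 0.12 each, adjusted p = 0.0385 and 0.0139 in limma), without overlap in either set.

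Cdk1 was the 1 kinase of stathmin called among 4 tested. Cdk1 read 0.53 and 0.12 after miR-365a, against 1.46 and 1.27 on miR-NC arrays, and fell by 1.04 (SE 0.17, adjusted p = 0.014 in limma). A dim second Cdk1 probe gave -0.77 (SE 0.55) and was not called (adjusted p = 0.408 in the limma fit of all probes). After miR-193b, where Stmn1 fell, Cdk1 read 1.15 and 1.22, against 1.76 and 1.96 on miR-NC arrays, with a log2 difference of -0.67 that was not called (SE 0.17, adjusted p = 0.0946). Of the 3 other stathmin genes, Stmn4 passed the dim filter, with log2 differences of -0.12 and 0.05 (SE 0.25 each). None of the 5 tested tubulin genes of the list was called after either microRNA, nor any of 12 genes of γ-, δ- and ε-tubulin and the γ-tubulin ring complex. Ttc5, the factor that recognises nascent tubulins in message autoregulation, had log2 differences of -0.06 and 0.46 (SE 0.14 each, adjusted p = 0.842 and 0.0715).

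Among 21 genes of tubulin folding, 2 were called lower after miR-365a. Vbp1, a prefoldin subunit that hands new tubulin to the chaperonin, read -0.20 and -0.54, against 1.69 and 1.48 on miR-NC arrays. It fell 3.88-fold (log2 difference -1.96, SE 0.17, adjusted p = 0.0033 in limma), and its second probe fell by 1.33. The chaperonin subunit gene Cct4 fell by 0.72 (SE 0.16, adjusted p = 0.0338). After miR-193b Vbp1 had a log2 difference of -0.23 (SE 0.17, adjusted p = 0.448), and 0 of the 21 genes were called.

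Among 15 genes of tubulin modification, the acetyltransferase gene Atat1 rose by 0.86 (SE 0.19) and Ttll12 by 0.63 (SE 0.14) after miR-365a, while the glutamylase gene Ttll4 fell by 1.08 (SE 0.12). Among 9 genes of severing and depolymerisation, the katanin-like gene Katnal1 rose by 1.12 (SE 0.22) and the depolymerising kinesin gene Kif2c fell by 0.90 (SE 0.16) after miR-365a. Among 29 plus-end and lattice binding genes, Mapre2 fell by 0.98 (SE 0.16), Map2 fell by 0.96 (SE 0.24) and the spindle factor gene Tpx2 fell by 0.74 (SE 0.13), with Prc1 as above, and Clip1 rose by 0.70 (SE 0.16). The adjusted p of these 9 calls, Prc1 left aside, in limma lay between 0.0049 for Ttll4 and 0.0435 for Map2. No gene of these roles other than Prc1 was called after miR-193b.

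**Figure D4:**
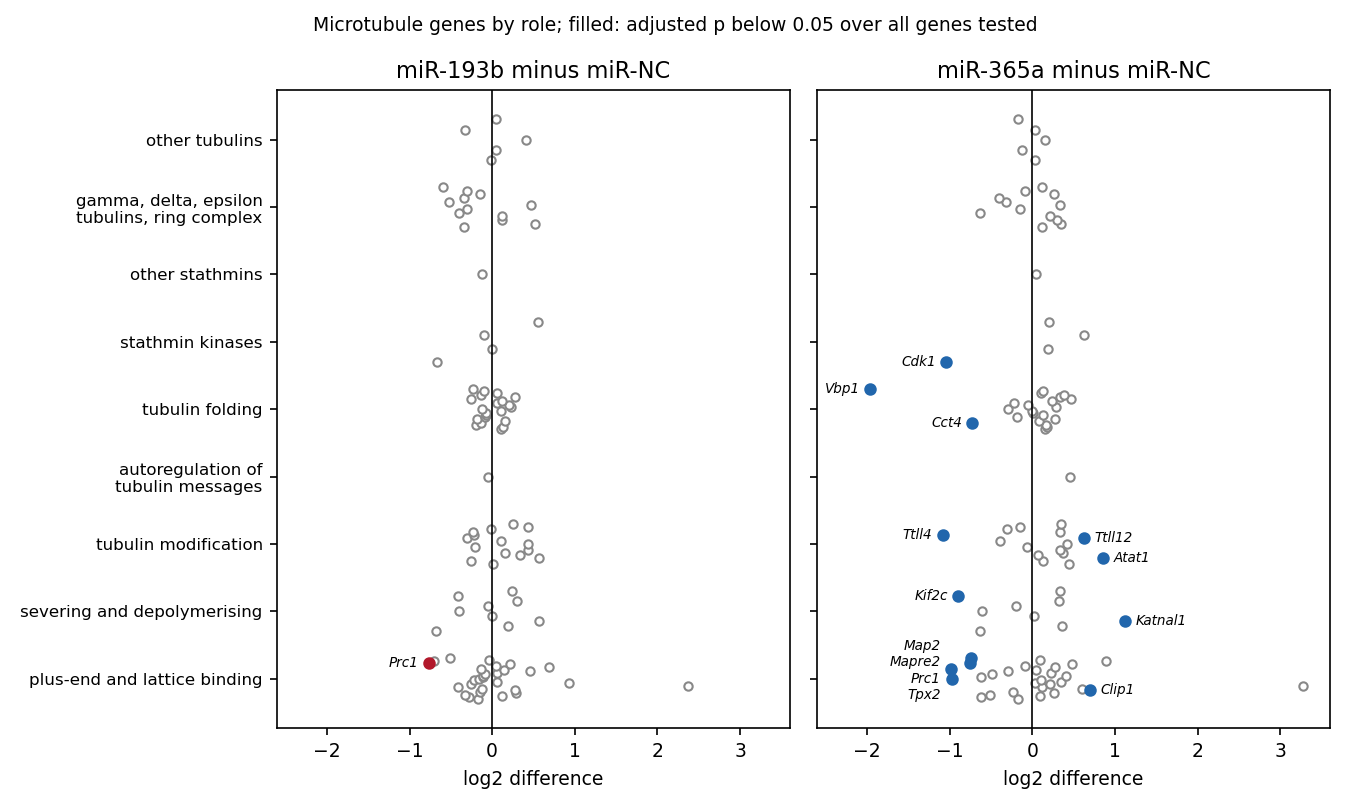
Each point is 1 gene of the microtubule list, placed by its role and by its log2 difference from the miR-NC arrays of the same amount label. Filled and named points had an adjusted p below 0.05 over all genes tested, and they number 1 after miR-193b and 13 after miR-365a.

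Markers were checked because several of these genes are best known from neurons. All 12 squamous keratinocyte markers were well above background on all 8 arrays. Of 8 neuronal markers, 4 were, while Rbfox3, Nefl and Nefm were on none. So were 1 of 6 fibroblast, 2 of 5 leukocyte, 1 of 4 endothelial and 1 of 4 melanocyte markers. On single arrays, 51.4% to 62.1% of all spots were well above background. Map2 was the 1 neuronal marker called, lower after miR-365a on its main probe only, and 0 were called after miR-193b. Of the keratinocyte markers, Krt16 was called higher after miR-193b, and Krt8 higher and Itga6 lower after miR-365a. Of 5 leukocyte markers, Csf1r was called higher after miR-365a, and none of the fibroblast, endothelial or melanocyte markers was called. The part of neuronal genes in the values of Tubb3, Tubb2a and Tubb2b was not tested.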

How the data were processed

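The authors deposited the scanner output of 8 Agilent 1-colour arrays, whose intensity values (processed signal) come from Agilent Feature Extraction 10.7.3.1 per the file headers, and a table of log2 values, used here as an alternative, for which the submitters' processing notes name limma without its role. From the deposited intensity, log2 of the processed signal minus the 75th percentile of gene spots on each array was computed, outlier-flagged spots were left out, spots of a probe were averaged, and the brightest probe stood for a gene. A gene entered the test where both arrays of any 1 transfection and amount flagged it well above background, and it was tested with limma 3.58.1 (R 4.3.3), with terms for amount, miR-193b and miR-365a over all 8 arrays, 4 residual degrees of freedom, and Benjamini-Hochberg adjustment at 0.05. The number of arrays limits the precision. Genes named were all 10 members, genes of the microtubule list called in either comparison, and the 5 genes most like Stmn1, of which 1 is not reported here. Members, microtubule list and markers were chosen with earlier results of these data known. The fit was checked on data simulated under its own model, and that check does not show that genes not called were unchanged. Replicate numbers follow sample order only, since the labels carry none. Alternatives varied background correction, scaling, filters, probe summary, samples fitted, variance model, slide block and single arrays.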

Additional observations from a re-analysis of the deposited data

Results flagged for a closer look

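The response of Stmn1 differed between the microRNAs by a test of the difference itself. The miR-193b effect minus the miR-365a effect was -1.45 on the log2 scale (SE 0.15, adjusted p = 0.0145 in limma), with Stmn1 lower on 2 of 2 miR-193b arrays than on both matched miR-NC arrays. The call of this difference was lost in 7 of 18 alternatives, as given above. The sets also differ in amount label and slide. On the 4 miR-NC arrays, no level of the 10 genes passed the limit of Dixon's test for an outlying array (95% level). These 4 arrays pool the controls of both amount labels, whose means differed, for example by 1.56 for Tubb2b. Such a shift between the sets can hide a stray array from this test, so nothing is read from it about the controls. Leaving out miR-NC replicate 3 changed the miR-365a differences of Tuba1a, Tubb2a and Tubb2b, as given above.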

How the results depend on the processing

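Stmn1 was the gene called after miR-193b in 16 of 19 alternatives and kept its sign in all 19 (log2 difference -1.59 to -1.44). It was lost with no dim filter (adjusted p = 0.064 in limma) and with the 0.2 µg arrays fitted alone (0.132). Slide as a block also lost it, where the miR-193b difference rests on the 1 array pair of slide 1. Each of these left 0 of the 10 genes called. After miR-365a the count was 0 with no dim filter, with the 0.6 µg arrays alone and with slide as a block, and 0 to 1 on leaving out single arrays, where without miR-NC replicate 4 the gene called was Tubb2b. The count of called differences between effects was 0 with no dim filter or slide as a block and 0 to 1 on leaving out arrays. Over all genes, calls after miR-193b numbered 522, against 1009 with normexp, 848 with the deposited log2 values, 11 with no dim filter, 890 where every array had to be above background, 331 with the mean over probes, 0 with the 0.2 µg arrays alone, 1031 with trended and robust variance, 172 with slide as a block, and 31 to 280 without single arrays. The 0 calls of the 0.2 µg arrays alone stand beside 3138 genes at an unadjusted p under 0.05. Calls after miR-365a numbered 2829, against 1055 with no dim filter and 591 to 2852 without single arrays. With normexp, 719 of the miR-193b calls were higher and 290 lower, against 313 and 209, and the median difference between effects over all genes was 0.13, against 0.02.

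Some values that were not called changed sign, without passing the threshold. After miR-193b, Tuba1c was -0.034 with quantile normalization and -0.12 in the deposited values, and Tuba4a was -0.051 and -0.061 there. With slide as a block, which for miR-193b rests on the 1 array pair of slide 1, Tubb5 was 0.046 and Tubb6 was 0.13. On leaving out single arrays, the miR-193b differences ranged from -0.022 to 0.16 for Tuba4a, -0.092 to 0.61 for Tubb3, -0.075 to 0.036 for Tubb5 and -0.34 to 0.061 for Tubb6. The miR-365a differences then ranged from -0.21 to 0.077 for Tuba4a, -0.015 to 0.75 for Tubb2a and -0.068 to 0.13 for Tubb5. The cause was not tested. No paired analysis was possible because the labels carry no replicate numbers, and slide was the only block fitted.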
